A study of Mus musculus with 6 samples.

Results

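Foxo1, Foxo3 and Foxp1 encode forkhead transcription factors, and their 3 loci were followed here through the contact maps of Erg KO B-cell progenitors. Each locus was taken as the bin of about 100 kb that holds the start of the gene, the bins of the gene body and all bins within 1 Mb on each side, which gave 21 bins per gene and 63 of the 26731 bins in all. All 63 lie on autosomes and passed the coverage filter that left 23649 bins. For these genes the bins were placed by annotation and not by a contact value, but the genes were chosen with earlier results of these data known. In the annotation of mm10, Foxo1 lies on the plus strand at chr3:52268336-52353221, Foxo3 on the minus strand at chr10:42181841-42276755 and Foxp1 on the minus strand at chr6:98925338-99522721. Their bodies cover 2, 2 and 7 bins. Protein-coding genes that start within 1 Mb number 12 around Foxo1, 21 around Foxo3 and 6 around Foxp1, each count with the gene itself.

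In situ Hi-C, a method in which neighbouring pieces of chromatin are joined by ligation and each joined fragment is read as a pair, had been done on 6 libraries. The Erg KO libraries (n = 2, one female and one male mouse) carry Rag1CreT/+;Erg fl/fl, that is, floxed Erg alleles with a Rag1-driven Cre that acts in lymphoid progenitors, so that Erg is lost in lymphoid cells and not in the whole animal. The CreT controls (n = 2, both female) carry the Cre, and the Erg fl/fl controls (n = 2, one female and one male) carry the floxed alleles without it. All mice are labelled C56BL/6, with no age given. Lineage-negative bone marrow from each was grown for 8 days on OP9 stroma, a mouse bone marrow feeder line, with SCF, IL7 and FL, and B220-positive cells were then selected. In the terms of the study, Erg KO cells stop at the pre-proB stage and controls reach the proB stage, so loss of Erg and developmental stage cannot be told apart. The libraries held 29014581 to 68085468 read pairs. The lowest total, that of Erg fl/fl control replicate 2, is below the range that the methods of the study give, for a reason that is not known. The other libraries lie inside that range. Contacts between different autosomes made up 32.3 and 34.6% of autosomal read pairs in Erg KO libraries, against 21.6 to 26.8% in the 4 control libraries. The labels do not describe the replicates beyond number and sex. The study calls them biological duplicates.

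FOXO factors bind a shared forkhead motif and are kept out of the nucleus once AKT, downstream of PI3 kinase, has phosphorylated them. In B-cell progenitors Foxo1 is known for driving the recombinase genes Rag1 and Rag2 and the IL-7 receptor gene Il7r, whereas Foxo3, its close relative, overlaps with it in many tissues. Foxp1 belongs to the FOXP branch of the family, which mostly represses transcription, and is needed for early B-cell development in mice. Erg is an ETS factor, a family that recognises the core GGAA.

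The letters that precede each annotated start are shown because the start bins are named for these positions and the deleted gene encodes an ETS factor. Each run gives the 250 bases before the start, read 5′ to 3′ on the strand of the gene from GRCm38.p6, and capitals mark GGAA on either strand (TTCC where it lies on the other one).
Foxo1, chr3:52268086-52268335, plus strand: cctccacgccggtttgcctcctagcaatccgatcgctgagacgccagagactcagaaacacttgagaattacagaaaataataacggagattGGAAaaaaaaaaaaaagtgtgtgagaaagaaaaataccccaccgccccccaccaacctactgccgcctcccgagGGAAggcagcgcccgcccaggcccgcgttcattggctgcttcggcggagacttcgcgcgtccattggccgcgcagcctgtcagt
Foxo3, chr10:42276756-42277005, minus strand: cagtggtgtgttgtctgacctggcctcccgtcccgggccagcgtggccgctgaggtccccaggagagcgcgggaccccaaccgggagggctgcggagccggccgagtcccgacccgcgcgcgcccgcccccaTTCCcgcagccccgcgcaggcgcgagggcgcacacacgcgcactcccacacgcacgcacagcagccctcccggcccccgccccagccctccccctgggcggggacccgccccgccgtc
Foxp1, chr6:99522722-99522971, minus strand: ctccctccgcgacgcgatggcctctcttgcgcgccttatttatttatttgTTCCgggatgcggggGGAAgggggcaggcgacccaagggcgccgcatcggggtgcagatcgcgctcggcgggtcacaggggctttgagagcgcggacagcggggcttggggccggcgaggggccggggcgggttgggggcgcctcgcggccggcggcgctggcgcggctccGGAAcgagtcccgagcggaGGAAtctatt
The 3 windows hold 2, 1 and 4 GGAA matches. In the window of Foxp1, 2 of the matches belong to the longer CCGGAA, which neither other window contains, and the forkhead motif TGTTTAC occurs in none, counted on both strands. Among 32851 RefSeq promoter windows of the same length, 93.4% hold GGAA, 12.0% CCGGAA and 3.17% TGTTTAC. GC content was 56.0% before Foxo1, 79.2% before Foxo3 and 71.6% before Foxp1. Such matches describe letters, and a bin of about 100 kb cannot show contacts of a single site.

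All 3 start bins were rich in contacts within 2 Mb. Local contacts, the summed read pairs of a bin with bins at 200 kb to 2 Mb, placed the start bin of Foxo1 at percentile 99.9 of the 23649 bins (mean of 6 libraries), Foxp1 at 99.3 and Foxo3 at 99.0. To set distances side by side, read pairs were divided by the mean at the same distance over all autosomes in the same library, here called observed over expected. Over 200 kb to 1 Mb the start bin of Foxo1 stood at 2.52 and 2.80 in Erg KO libraries, 2.97 and 2.91 in CreT controls and 2.75 and 2.73 in Erg fl/fl controls. At Foxo3 it stood at 2.197 and 2.066 in Erg KO libraries, against 2.07 to 2.15 in controls. Foxp1 had 2.096 and 2.02 in Erg KO libraries, against 1.76 to 2.11 in controls. Groups overlapped at each of the 3 loci, and the log2 difference was -0.10, 0.02 and 0.07 (exact two-sided permutation p = 0.267, 0.667 and 0.600; adjusted over 18 bands 0.600, 0.800 and 0.800). With 2 libraries against 4 there are 15 ways to choose, so p cannot go below 0.0667.

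**Figure D1:**
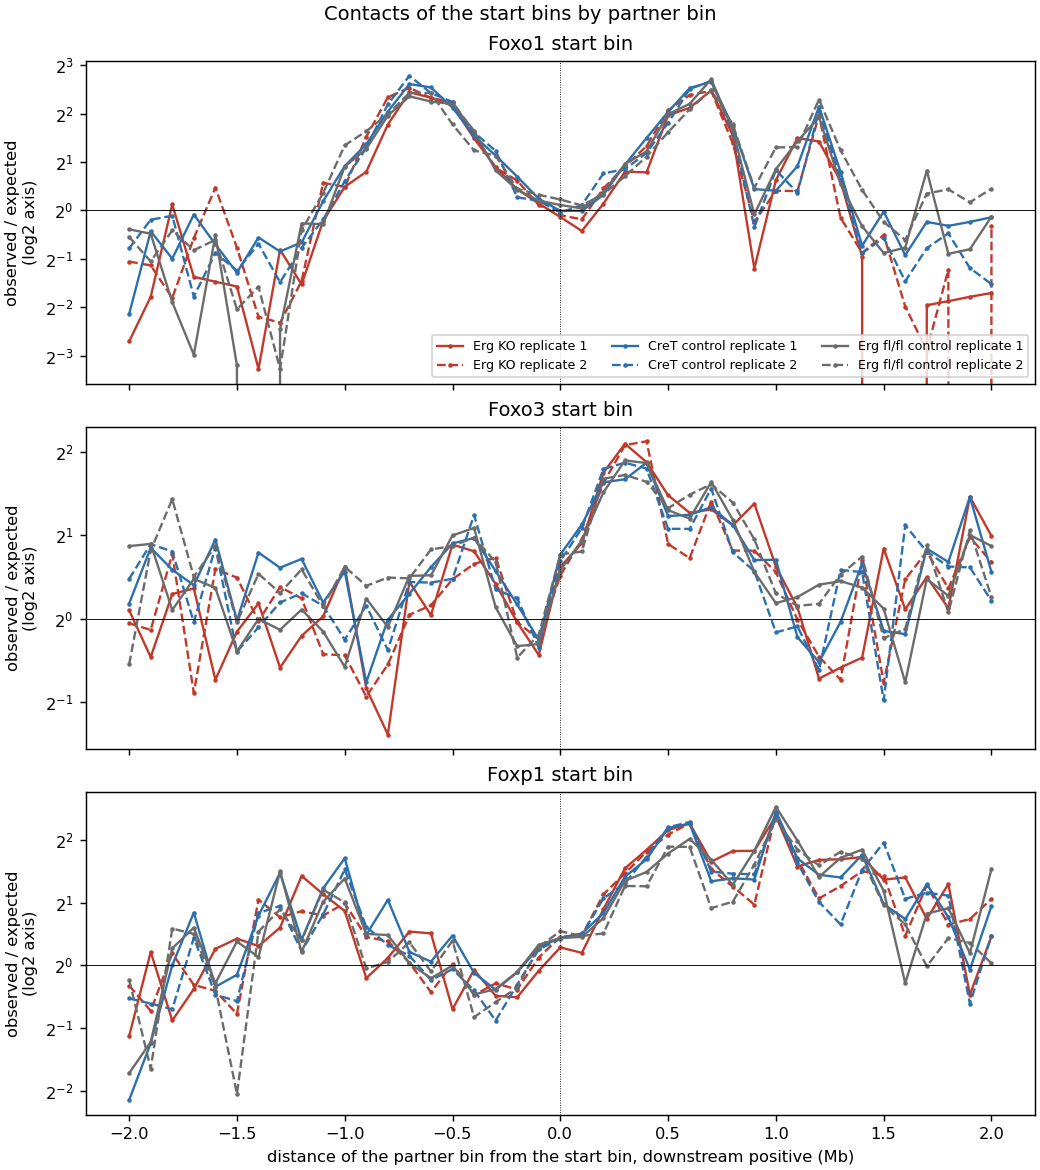
Observed over expected contacts (log2 axis) of the start bins of Foxo1, Foxo3 and Foxp1 with each bin up to 2 Mb away, with downstream in the direction of transcription to the right (distance in Mb). Each line is a library, and a line that leaves a panel at the bottom marks partner bins with no read pair. Foxo1 has a hump on each side, near 0.6 to 0.7 Mb, whereas Foxo3 and Foxp1 lean downstream in all 6 libraries.

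The profile of Foxo1 was two-sided. Its 5 strongest partner bins at 200 kb to 2 Mb lay 700 and 600 kb downstream, where no protein-coding gene starts, 700 kb upstream at Setd7, a lysine methyltransferase gene, and 600 kb upstream at Mgst2, a glutathione S-transferase gene. The fifth differed, at 500 kb upstream in Erg KO libraries and 1200 kb downstream in controls (Nhlrc3, Proser1, Stoml3). Thus 4 of the 5 were shared by both groups. The partner 700 kb downstream had 5.58 and 5.55 times the expected contacts in Erg KO libraries, against 6.32 and 6.40 in CreT controls and 6.55 and 5.59 in Erg fl/fl controls, without overlap. At Setd7 the values were 5.44 and 5.79 in Erg KO libraries, against 5.13 to 6.88 in controls, which overlapped.

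Foxo3 made its strongest contacts downstream. They were with the bin at 300 kb (no protein-coding start), the bin at 400 kb that holds the starts of Sesn1, which encodes a stress-induced inhibitor of mTORC1 and is a known FOXO target, and of Cep57l1, the bin at 200 kb (Armc2) and the bin at 700 kb (Cd164, which encodes a sialomucin). These 4 were shared by both groups, with the bin at 300 kb first by the mean of Erg KO libraries and the Sesn1 bin first by that of controls. At 300 kb observed over expected contact was 4.29 and 4.24 in Erg KO libraries, against 3.19 and 3.67 in CreT controls and 3.74 and 3.31 in Erg fl/fl controls, so that both Erg KO libraries lay above all controls. At the Sesn1 bin it was 3.68 and 4.38 in Erg KO libraries and 3.13 to 3.66 in controls, again without overlap. Neither pair passed in the edgeR fit described next (log2 fold change 0.15 and -0.03; adjusted p = 0.368 and 0.919), which normalises over abundance and not over distance.

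For Foxp1 the strongest partners lay at 1000, 600, 500 and 1100 kb downstream, again 4 of 5 shared, and no other protein-coding gene starts in these bins, though the one at 500 kb holds a further RefSeq start of Foxp1. Those at 500 and 600 kb belong to the far end of its own gene body. Contact at 1000 kb was 5.19 and 5.37 times the expected in Erg KO libraries and 5.01 to 5.75 in controls. The bin with the end of Foxp1, at 600 kb, had 4.79 and 4.80 in Erg KO libraries, against 3.70 to 4.87 in controls. Values of Erg KO libraries lay inside the range of controls at both partners.

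Differential contacts were tested with the quasi-likelihood test of edgeR over 431365 bin pairs, with group and sex in the model, loess offsets over abundance, and Benjamini-Hochberg adjustment at 0.05. Of the 21 pairs that a start bin makes within 1 Mb, itself included, 7 fell in Erg KO at Foxo1, 2 at Foxo3 and 1 at Foxp1, and none rose, whereas at an unadjusted p under 0.05 there were 11, 5 and 3 pairs. Across all tested pairs 6.47% fell and 6.38% rose. The median log2 fold change of the 21 pairs was -0.38 at Foxo1, -0.09 at Foxo3 and -0.10 at Foxp1, against -0.01 over all tested pairs, and 21, 17 and 12 of the 21 were below 0. In such bulk libraries, fewer cells with a contact and a rarer contact in each cell cannot be told apart.

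The 7 pairs of Foxo1 that fell spanned both arms of its profile. With the partner 700 kb downstream, counts normalised by the offsets were 115.1 and 113.0 in Erg KO libraries, 149.2 and 137.1 in CreT controls and 155.6 and 169.0 in Erg fl/fl controls (log2 fold change -0.43 ± 0.12 SE, edgeR adjusted p = 0.011). With the partner 600 kb downstream they were 106.4 and 126.1 in Erg KO libraries, against 129.1 to 160.5 in controls (-0.38 ± 0.13, adjusted p = 0.030). In these normalised counts the groups were apart at each of these bins. By observed over expected they overlapped at 600 kb, with 4.35 and 5.21 in Erg KO libraries and 4.26 to 5.76 in controls. Upstream, the pair with Mgst2 had 122.8 and 120.9 in Erg KO libraries, against 133.4 to 187.2 in controls (-0.38 ± 0.12, adjusted p = 0.023). The pair with Setd7 had 112.2 and 118.2 in Erg KO libraries, against 121.6 to 162.1 in controls (-0.37 ± 0.13, adjusted p = 0.034). These upstream pairs were also without overlap, though the Erg fl/fl control replicate 1 came within a few counts of the Erg KO libraries at Setd7. The pair of the start bin with the next bin, which holds the rest of Foxo1, had 112.2 and 132.9 in Erg KO libraries and 149.2 to 163.5 in controls (-0.39 ± 0.12, adjusted p = 0.018). The upstream pairs moved most when a library was left out. The pair with Mgst2 stood at -0.70 when Erg KO replicate 1 was omitted, at -0.19 when Erg KO replicate 2 was, and at -0.21 when Erg fl/fl control replicate 2 was. The pair with Setd7 stood at -0.58 and -0.24 when the Erg KO replicates 1 and 2 were omitted in turn. In the fit that lacked Erg KO replicate 1 the pair with the next bin stood at -0.25.

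Other pairs that fell were less even. At 400 kb downstream of Foxo1 the normalised counts were 65.3 and 95.5 in Erg KO libraries and 91.3 to 118.3 in controls, which overlapped (-0.44 ± 0.16, adjusted p = 0.040, and -0.14 without Erg KO replicate 1). At 900 kb they were low, 7.44 and 14.3 in Erg KO libraries and 13.7 to 25.8 in controls (-1.08 ± 0.38, adjusted p = 0.038). Beyond 1 Mb, the pair with the bin of Nhlrc3, Proser1 and Stoml3, at 1200 kb, fell too (32.1 and 46.05 in Erg KO libraries, 47.6 to 73.7 in controls, log2 fold change -0.69 ± 0.22, adjusted p = 0.020). It was the 1 pair called among the 5 of Foxo1 that were tested beyond 1 Mb.

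At Foxo3 both called pairs lay upstream, at 800 kb (7.44 and 13.2 in Erg KO libraries, 15.3 to 29.7 in controls, -1.19 ± 0.37, adjusted p = 0.020) and at 400 kb (67.1 and 60.6 in Erg KO libraries, 81.8 to 95.7 in controls, -0.47 ± 0.17, adjusted p = 0.048). No protein-coding gene starts in either bin. At Foxp1 the pair 500 kb upstream had 19.9 and 32.6 in Erg KO libraries and 31.6 to 45.9 in controls, with overlap (-0.72 ± 0.26, adjusted p = 0.049). The pair of Foxp1 with Gxylt2, a glycosyltransferase gene 1200 kb upstream, rose, with 32.9 and 22.0 in Erg KO libraries and 14.5 to 18.2 in controls (0.85 ± 0.30, adjusted p = 0.042). The difference was 0.25 when Erg KO replicate 1 was omitted and 1.13 when Erg KO replicate 2 was, so it rested largely on Erg KO replicate 1. It was the only start bin pair of the 3 genes that rose.

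Total contacts of the start bins moved with these falls. Relative to the mean bin of a library, the start bin of Foxo1 had 109.4 and 114.3% of contacts in Erg KO libraries, against 124.9 to 134.7% in controls. That of Foxo3 had 130.2 and 130.2% in Erg KO libraries, against 139.2 to 146.0% in controls, and that of Foxp1 had 123.6 and 126.1%, against 130.8 to 135.0%. The groups did not overlap at any of the 3 (exact permutation p = 0.0667 each, the smallest possible). The start bins are also GC-rich, at 44.4, 47.1 and 45.3% against a median of 41.5% over bins. A second set of offsets added a loess trend over the total contacts of both bins, pooled over all libraries. With these coverage offsets no start bin pair fell. They do not divide out the total of a bin in each library. Under that setting 1.25% of all pairs fell and 1.93% rose, the median of the 21 pairs was -0.12 at Foxo1, 0.19 at Foxo3 and 0.12 at Foxp1, and 3 pairs rose at Foxo3 and 1 at Foxp1. The pair of the start bin of Foxo3 with the bin 300 kb downstream was the first of these, at 0.47 ± 0.10 (adjusted p = 0.0016), followed by the start bin with itself (0.35 ± 0.09, adjusted p = 0.0064) and with the bin 100 kb downstream (0.31 ± 0.09, adjusted p = 0.029). At Foxp1 it was the start bin with itself (0.30 ± 0.09, adjusted p = 0.039). Offsets over GC content also left no start bin pair that fell.

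**Figure D2:**
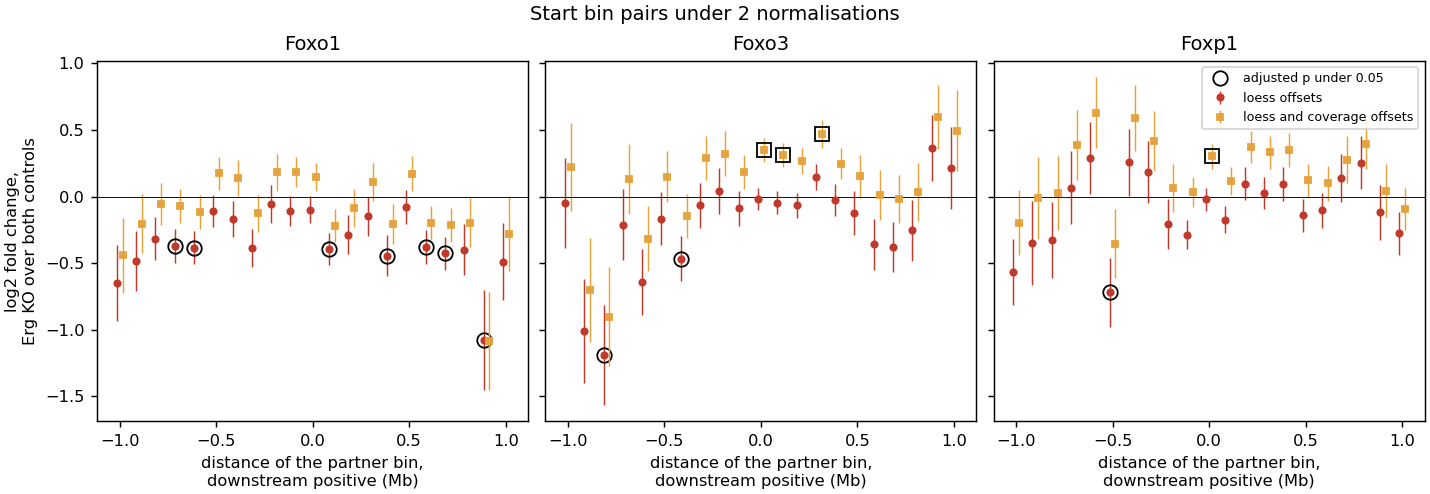
Log2 fold change (Erg KO over both controls, bars ± SE) of the 21 pairs that each start bin makes within 1 Mb, against the distance of the partner bin in Mb, under loess offsets (circles) and under loess and coverage offsets (squares). Outlined points have an adjusted p under 0.05; with coverage offsets the 7 falls of Foxo1 are no longer called and 3 pairs of Foxo3 rise.

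Against each control alone, 5 start bin pairs of Foxo1 fell relative to CreT controls (3.55% of all pairs fell) and 1 relative to Erg fl/fl controls (5.43% fell). For Foxo3 these counts were 0 and 2, and for Foxp1 0 and 0. These comparisons share the Erg KO libraries. Between the controls no start bin pair was called by edgeR, with 0, 1 and 1 at an unadjusted p under 0.05. Without Erg KO replicate 1, or without Erg KO replicate 2, edgeR called no pair anywhere, and without Erg fl/fl control replicate 2 fewer pairs were called genome-wide (7834 fell and 9865 rose, against 27922 and 27522).

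Among all tested pairs inside the windows, 45 of 228 fell around Foxo1, 18 of 231 around Foxo3, where 1 rose, and 7 of 231 around Foxp1. Genome-wide 6.47% of tested pairs fell and 6.38% rose. The share that fell was above this around Foxo1, near it around Foxo3 and below it around Foxp1. Around Foxo1, 23 of the 45 joined 2 bins upstream of the start, 13 joined 2 bins downstream, 7 involved the start bin and 2 spanned it. Of the tested pairs, 55 lay upstream, 55 downstream and 97 across the start. The 45 ranged from -1.08 to -0.25 on the log2 scale. Median values over all tested window pairs were -0.26, -0.20 and -0.07. With the coverage offsets 2 pairs fell and 1 rose around Foxo1, 2 fell and 15 rose around Foxo3, and 14 rose with none falling around Foxp1. Under these offsets 1.25% of all tested pairs fell and 1.93% rose.

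By distance band, the start bin of Foxo1 differed without overlap at 100 to 200 kb, with 1.02 and 1.13 times the expected contacts in Erg KO libraries and 1.17 to 1.23 in controls (log2 difference -0.16), and at 1.1 to 2 Mb, with 0.764 and 0.842 in Erg KO libraries and 0.916 to 1.28 in controls (-0.41). Foxo3 differed without overlap at 300 to 500 kb, where it was higher, with 2.66 and 2.63 in Erg KO libraries and 2.41 to 2.52 in controls (0.11), and at 1.1 to 2 Mb, where it was lower, with 1.08 and 1.15 in Erg KO libraries and 1.22 to 1.37 in controls (-0.22). No band of Foxp1 was without overlap. Exact p-values were 0.0667, 0.133, 0.0667 and 0.0667 in this order, and none of the 18 bands had an adjusted p below 0.40.

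The lean of the contacts was then set out as the log2 of downstream over upstream observed over expected contacts at 100 kb to 1 Mb. Foxo1 leaned slightly upstream, at -0.30 and -0.23 in Erg KO libraries, -0.17 and -0.17 in CreT controls and -0.11 and -0.22 in Erg fl/fl controls. Foxo3 leaned downstream, at 1.35 and 1.29 in Erg KO libraries, 1.09 and 1.17 in CreT controls and 1.17 and 0.98 in Erg fl/fl controls. Foxp1 leaned downstream as well, at 1.43 and 1.34 in Erg KO libraries, 1.06 and 1.28 in CreT controls and 1.11 and 1.12 in Erg fl/fl controls. At each locus the lean was further from 0 in both Erg KO libraries than in all 4 controls. The differences were -0.09, 0.22 and 0.24, each with an exact two-sided permutation p of 0.0667, the smallest that 2 against 4 allows, and 0.0667 when adjusted over the 3 loci. Divided by total contacts they were -0.13, 0.24 and 0.18 (exact p = 0.133, 0.0667 and 0.200). The gap between groups at Foxo1, between -0.23 and -0.22, was small, and its difference ran from -0.13 (Erg KO replicate 2 omitted) to -0.057 (Erg KO replicate 1 omitted).

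**Figure D3:**
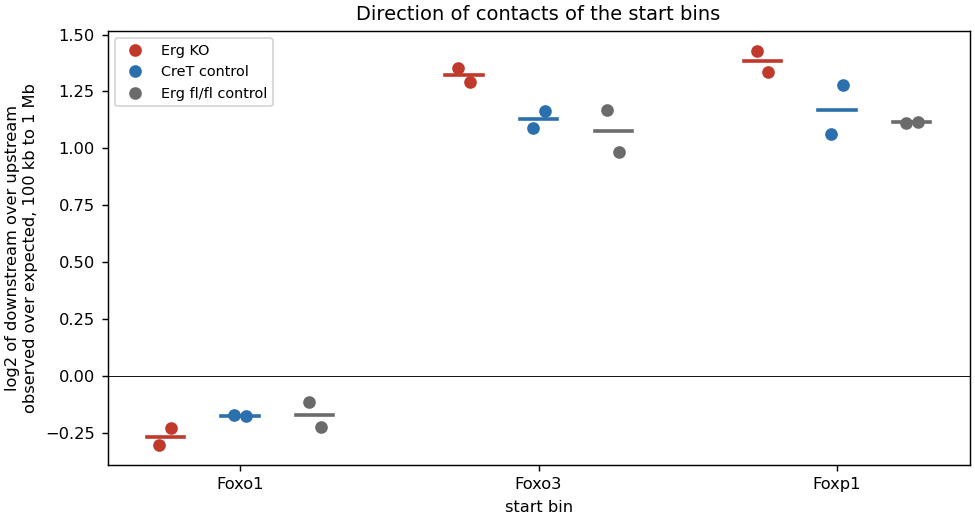
Log2 of downstream over upstream observed over expected contacts at 100 kb to 1 Mb for each start bin. Points are libraries and bars are group means (2 libraries each); Erg KO libraries lie further from 0 than all 4 controls at each gene.

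Within the gene bodies, the pair of the 2 Foxo1 bins had 0.744 and 0.880 times the expected contacts in Erg KO libraries, against 0.993 and 1.08 in CreT controls and 1.03 and 1.07 in Erg fl/fl controls. The difference was -0.37 on the log2 scale (exact p = 0.0667, adjusted over 6 values 0.200), and it was 0.01 once counts were divided by total contacts. The 2 Foxo3 bins had 1.87 and 1.94 in Erg KO libraries and 1.75 to 2.19 in controls (-0.06). Over the 21 pairs of different bins of Foxp1 observed over expected contact was 1.88 and 2.08 in Erg KO libraries and 1.90 to 2.11 in controls (-0.01), and the pair of its start and end bins had a difference of 0.15 (exact p = 0.333). Of 28 pairs in the body of Foxp1, the diagonal included, 1 fell in the edgeR fit.

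The insulation score is the log2 of the mean observed over expected contact between the 500 kb before and the 500 kb after a bin, less the median of the chromosome, so that a low score marks a boundary that contacts seldom cross. It was tested with limma over 23349 bins, of which 32.1% fell and 32.4% rose in Erg KO. All 21 bins around Foxo1 fell, 12 of 21 fell around Foxo3 and 0 of 21 around Foxp1. Adjacent bins share most of the contacts behind their scores, so the bins of a window are not independent calls. The median difference over the window was -0.44 around Foxo1, -0.26 around Foxo3 and -0.09 around Foxp1, against 0.00 over all bins.

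In the start bin of Foxo1 the score was 0.58 and 0.91 in Erg KO libraries, 1.098 and 1.12 in CreT controls and 0.72 and 0.90 in Erg fl/fl controls. Erg KO replicate 2 lay inside the range of the controls, and the difference was -0.28 ± 0.08 (SE, limma adjusted p = 0.013). It was -0.49 against CreT controls (adjusted p = 0.0051) and -0.06 against Erg fl/fl controls (adjusted p = 0.548), with 0.43 between the controls (adjusted p = 0.544), so the call was lost against Erg fl/fl controls alone. The start bin of Foxo3 had 1.20 and 1.28 in Erg KO libraries and 1.19 to 1.38 in controls (-0.06 ± 0.08, adjusted p = 0.518). The start bin of Foxp1 had 0.15 and 0.24 in Erg KO libraries, against 0.18 to 0.30 in controls (-0.09 ± 0.07, adjusted p = 0.286). Of the 3, Foxo3 lay highest (percentile 97.5 of all bins by the mean of 6 libraries), then Foxo1 (89.5) and Foxp1 (61.9).

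The lowest score on each side of the start was then located, though such a minimum need not mark a boundary. In controls the mean score was above the chromosome median at every minimum but those upstream of Foxo1 and Foxp1. At Foxo1 the minima were the bin 1000 kb upstream, with Noct, a circadian gene, and the bin 800 kb downstream, with Cog6 and Lhfp, in all 6 libraries. The score at Noct was -1.55 and -1.56 in Erg KO libraries, against -1.34 to -0.72 in controls (-0.53 ± 0.13, adjusted p = 0.0074). At Cog6 and Lhfp it was -0.02 and -0.16 in Erg KO libraries, against 0.34 to 1.04 in controls (-0.74 ± 0.13, adjusted p = 0.0018), the largest fall in the window of Foxo1. At both the groups were apart. Omitting Erg KO replicate 1 gave -0.92 and -1.15 at these bins, and omitting replicate 2 of Erg KO, or that of Erg fl/fl controls, gave -0.30 and -0.50, each still past the threshold. The highest control value at each was that of Erg fl/fl control replicate 2. The upstream minimum of Foxo1 lies at the edge of the window, and no minimum was sought beyond it.

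At Foxo3 the upstream minimum was 700 kb away in 5 of 6 libraries and 500 kb away in Erg KO replicate 1. Its score was -0.02 and 0.00 in Erg KO libraries and 0.31 to 0.75 in controls (-0.56 ± 0.10, adjusted p = 0.0018). The largest difference of that window was -0.66, at 600 kb upstream, where Scml4 starts. The downstream minimum lay at 800 or 900 kb, depending on the library, and only the bin at 800 kb passed (-0.31 ± 0.09, adjusted p = 0.014), though not without CreT control replicate 1 (-0.27). Foxp1 sits next to its upstream minimum, 100 kb away at Eif4e3, which encodes a cap-binding protein, and Gpr27, an orphan receptor gene, in all 6 libraries. The score there was -0.10 and -0.04 in Erg KO libraries and -0.11 to 0.08 in controls (-0.08 ± 0.07, adjusted p = 0.386). The downstream minimum of Foxp1, at 1000 kb, was also the same in all 6 and is at the edge of the window.

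**Figure D4:**
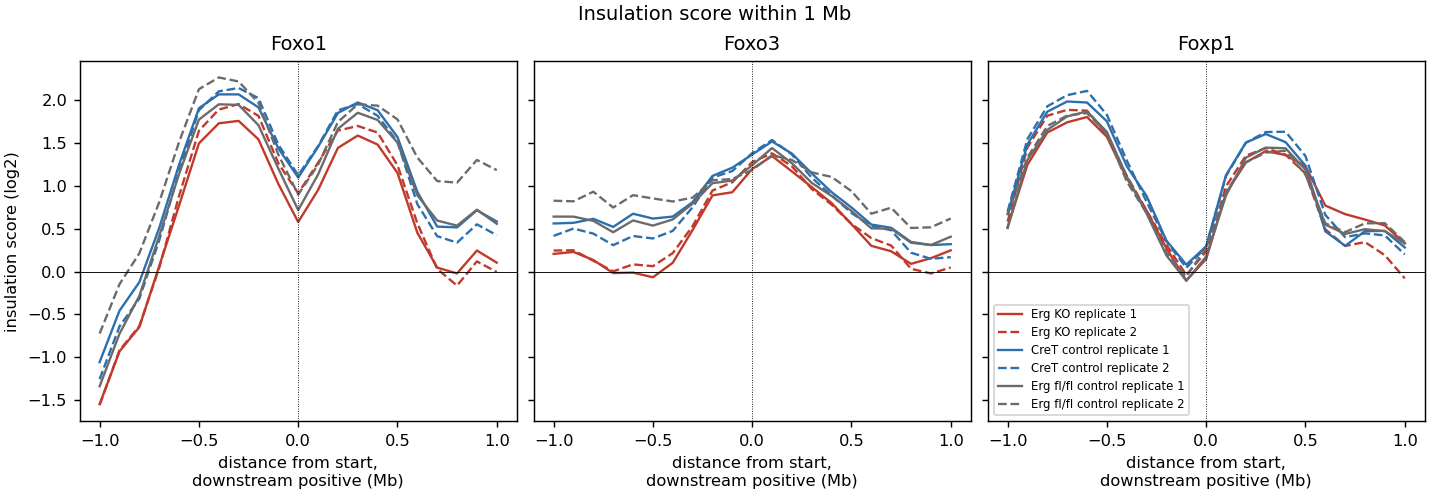
Insulation score (log2) of the bins within 1 Mb of Foxo1, Foxo3 and Foxp1, by distance from the start in Mb, one line per library. Both Erg KO lines run below all controls on the flanks of Foxo1 and upstream of Foxo3, and the 6 lines lie together around Foxp1.

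The lower total contacts of these bins move with these scores too. After division by the total contacts of both bins, 9.21% of all bins fell and 9.67% rose, and the start bins were higher in Erg KO, by 0.32 at Foxo1, 0.31 at Foxo3 and 0.34 at Foxp1 (adjusted p = 0.026, 0.022 and 0.013). Around Foxo1 0 bins fell and 9 rose, around Foxo3 2 fell and 6 rose, and around Foxp1 0 fell and 18 rose. The minima of Foxo1 at Noct and at Cog6, and of Foxo3 at 700 kb upstream, remained lower, at -0.12, -0.21 and -0.19, without passing. The direction of the insulation score in the start bins therefore depended on this division.

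Local contacts, tested with edgeR over 23649 bins after TMM scaling, fell at 33.2% of bins and rose at 34.3%. The start bin of Foxo1 had 87.9 and 98.4 read pairs on the TMM-normalised CPM scale in Erg KO libraries, 108.6 and 105.2 in CreT controls and 100.05 and 103.6 in Erg fl/fl controls, from 1609 and 1718 read pairs in Erg KO libraries and 1445 to 2580 in controls. It fell by 0.19 ± 0.05 on the log2 scale (adjusted p = 0.0030), without overlap, and against Erg fl/fl controls alone the difference was -0.13 (adjusted p = 0.057). Foxo3 had 80.8 and 77.9 in Erg KO libraries and 79.9 to 85.9 in controls (-0.07 ± 0.06, adjusted p = 0.291). Foxp1 had a difference of 0.03 ± 0.05 (adjusted p = 0.631). In the windows 20 of 21 bins fell around Foxo1, 15 of 21 around Foxo3, and 1 fell and 1 rose around Foxp1. With total contacts as an offset (16.9% of bins fell and 25.1% rose) the start bins differed by 0.09 at Foxo1, 0.11 at Foxo3 and 0.17 at Foxp1 (adjusted p = 0.125, 0.042 and 0.0032).

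The compartment score separates gene-rich, open chromatin (positive) from gene-poor, closed chromatin (negative), in units of SD along a chromosome. All 63 bins were positive in the mean of the Erg KO libraries and in that of the controls, and the lowest value in any library was 0.03, near Foxp1. The start bin of Foxo1 scored 1.52 and 1.53 in Erg KO libraries and 1.51 to 1.65 in controls, at percentile 99.3 of all bins. That of Foxo3 scored 1.46 and 1.39 in Erg KO libraries and 1.34 to 1.46 in controls (percentile 93.0), and that of Foxp1 scored 1.26 and 1.31 in Erg KO libraries and 1.29 to 1.34 in controls (percentile 86.1). The limma differences were -0.05 ± 0.03, 0.03 ± 0.03 and -0.03 ± 0.03 (adjusted p = 0.304, 0.541 and 0.543). None of the 63 bins changed, and of all bins 2.88% did, in either direction. With so small a share, the lack of calls among 63 bins does not set these loci apart. Without Erg KO replicate 1, or without Erg fl/fl control replicate 1, 1 to 4 bins per window fell. The largest differences in the windows were -0.17, 1000 kb downstream of Foxo1, and -0.22, 800 kb upstream of Foxo3.

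**Figure D5:**
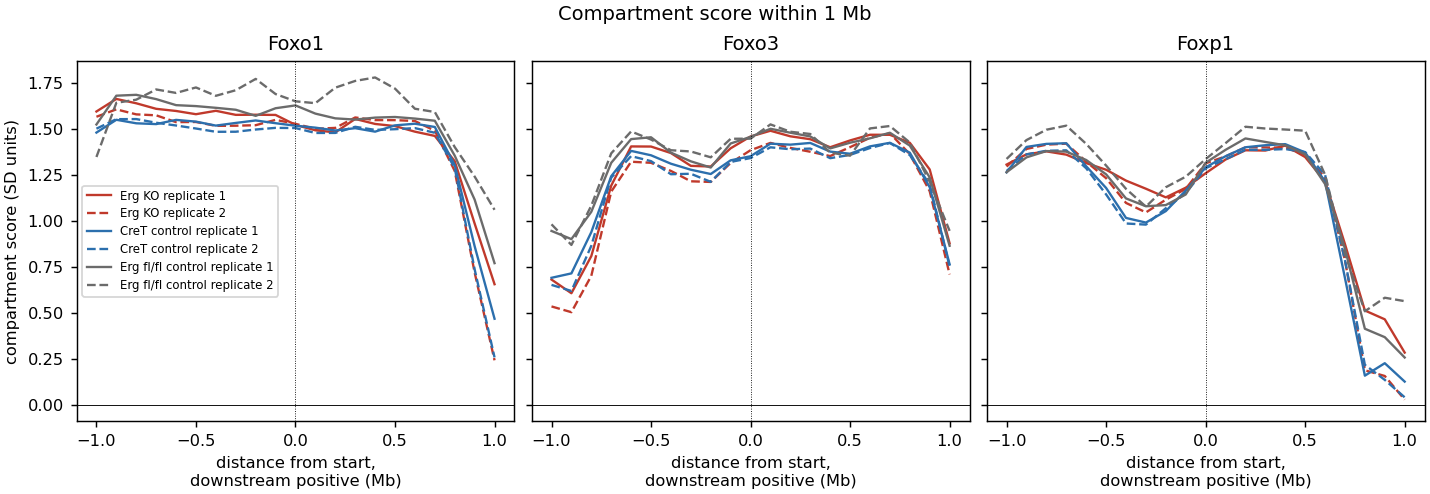
Compartment score (SD units) of the bins within 1 Mb of Foxo1, Foxo3 and Foxp1, by distance from the start in Mb, one line per library. All lines stay above 0, with the drop towards the far end of the window of Foxo1 and of Foxp1 in every library.

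Other genes of the pathway were taken as whole lists, chosen with earlier results of these data known. Of 3 further FOXO and FOXP genes on autosomes, insulation fell at Foxo6 and Foxp4 and rose at Foxp2. The list of kinases, phosphatases and partners upstream of FOXO had 13 of 19 bins that fell in insulation and 0 that rose (median -0.43), among them Akt1 and Akt2, which encode FOXO kinases, and Inpp5d, which encodes the phosphatase SHIP. In local contacts 15 of 19 fell. Of 25 genes known as FOXO targets, which lie in 24 bins, 12 genes fell in insulation, among them Rag1, Rag2, Blnk, which encodes a B-cell adaptor, and Ccnd2, a cyclin gene, and none rose (median -0.20). Without either CreT control replicate 6 fell, with the group alone in the model 4 fell, and without Erg KO replicate 1 there were 2 that rose. Genome-wide, 4861 of 23349 bins fell with the group alone, and fewer bins fell in the fits without a CreT control replicate too. The bin of Pik3ip1 had no insulation score, Rag1 and Rag2 share a bin, and Il7r and Ebf1 did not pass. Local contacts fell at 14 target genes and rose at Ikzf1, a B-cell regulator. In compartment score 0 of 19 bins of the upstream list changed, and Pik3ip1, an inhibitor of PI3 kinase, rose among the targets. These lists stand beside the 32.1% of bins that fell genome-wide in insulation and the 33.2% that fell in local contacts. The scores of the lists were not divided by total contacts.

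By compartment score over the 6 libraries, the list genes nearest to Foxo1 (Euclidean distance, 47 genes) were Inpp5d (0.145), Txnip (0.195) and Ywhaz (0.214). Those nearest to Foxo3 were Ep300 (0.062), Bcl2l11 (0.098) and Syk (0.120), and those near Foxp1 included Ccnd2 (0.109) and Trib1 (0.165). Between the windows of 2 of the 3 genes, on different chromosomes, each library held 10 to 59 read pairs. These were 1.02 to 1.67 times those expected from totals in Erg KO libraries and 0.826 to 1.87 in controls, which is sparse and was not tested. For Foxo1 with Foxo3 the ratio was 1.03 and 1.35 in Erg KO libraries, against 1.15 to 1.87 in controls.

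Hi-C holds no RNA, so the labelled cell type could be checked only through the compartments of marker genes. Of the 8 B lineage markers, 7 had a positive mean in both groups, and the median was 0.97 and 1.02 in Erg KO libraries and 1.05 to 1.16 in controls. The eighth, Ebf1, had a mean of -0.67 in Erg KO libraries and -0.43 in controls. The 4 bins of T lineage and the 4 of myeloid markers were positive too, so this check does not set the lineages apart. Of 8 markers of bone marrow stroma, which OP9 cells express, 7 had a positive score in both groups, and the median was 0.79 and 0.65 in Erg KO libraries and 0.59 to 0.64 in controls. Prrx1 and Col1a2 rose. In insulation 6 of 8 B lineage, 4 of 4 T lineage and 4 of 4 myeloid markers fell, and 2 of 8 stroma markers fell and 3 rose. The 8 B lineage genes lie in 7 bins, and genome-wide 32.1% of bins fell and 32.4% rose. The part of feeder cells in the contacts of Foxo1, Foxo3 and Foxp1 was not tested.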

How the data were processed

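Counts of read pairs in pairs of bins of about 100 kb were used as deposited by the authors, raw and 1 matrix per library. Per the methods of the study, reads were aligned to mm10 with diffHic, and duplicates and pairs from unligated ends were removed. Bins follow restriction fragments. Genes were placed by their start in GENCODE M21.

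Autosomal bins with 0.3 to 3 times the median total contacts were kept, and bin pairs with at least 10 read pairs and 5 times the abundance of contacts between chromosomes (in 500 kb bins) were tested. Tests were run in R 4.3.3 with edgeR 4.0.16 (quasi-likelihood, loess offsets written anew for pairs, TMM for local contacts) and limma 3.58.1 (insulation and compartment scores), with group and sex in the model, over all 6 libraries and all features, Benjamini-Hochberg adjusted at 0.05. Single values per library were tested by exact two-sided permutation. Scripts were tested on simulated data. p-values measure the spread between these libraries.

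Members and gene lists were chosen with earlier results of these data known. Named are the 3 genes, their 5 strongest partner bins in each group, start bin pairs that passed, the lowest insulation score on each side and the 3 nearest list genes, of which 1 is not reported here. Foxo4 and Foxp3, on the X chromosome, were not analysed here. Alternatives were TMM, coverage and GC offsets, other filters and windows, DESeq2 1.42.0, thinning to the shallowest library, other covariates and leaving out each library. Replicate numbers were checked for pairing by the correlation of same-numbered deviations from group means, which ran from -0.50 to 0.48 for insulation and from -0.35 to 0.14 for compartment scores, so the numbers were not taken to pair libraries.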

Additional observations from a re-analysis of the deposited data

Results flagged for a closer look

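In 3 of 34 sets of the 4 control libraries, 1 library lay far from the other 3 by Dixon's test. Chance gives such a value in about 1 in 20 sets. In Erg fl/fl control replicate 2, the shallowest library, the start bin of Foxo3 had log2 observed over expected contacts of -0.34 at 2.1 to 10 Mb, against -0.75 to -0.68 in the other controls. In the same library the start bin of Foxp1 had 1.09 at 600 kb to 1 Mb, against 1.34 to 1.39. In Erg fl/fl control replicate 1 the insulation score of the start bin of Foxp1 was 0.18, against 0.28 to 0.30. No cause was tested.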

How the results depend on the processing

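The cause of the changes below was not tested, apart from coverage and GC content, which enter by construction. Counts of start bin pairs that fell, 7 at Foxo1, 2 at Foxo3 and 1 at Foxp1, became 0, 0 and 0 with coverage offsets, with GC offsets, with DESeq2 and after thinning to the shallowest library. They were 1, 0 and 0 with the group alone in the model and 1, 0 and 0 with the replicate number as a block in place of sex. With a count minimum of 20 and no abundance filter they were 1, 1 and 0, and with TMM scaling Foxo1 had 1. Counts inside the windows, 45, 18 and 7, became 2, 2 and 0 with coverage offsets, 1, 2 and 0 with GC offsets, 0, 1 and 0 with DESeq2, 14, 11 and 2 after thinning, 14, 7 and 1 with the group alone, and 16, 9 and 1 with the replicate block. TMM scaling gave 15 at Foxo1 and 2 at Foxp1, and raising the count minimum to 20 while dropping the abundance filter gave 2 at Foxp1. DESeq2 gave an adjusted p for 17, 13 and 13 of the 21 start bin pairs and for 101, 113 and 112 window pairs. Leaving out 1 library gave 0 to 7, 0 to 2 and 0 to 1 start bin pairs and 0 to 48, 0 to 21 and 0 to 5 window pairs, with 0 whenever either Erg KO library was left out.

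Genome-wide, 27922 of 431365 bin pairs fell and 27522 rose. These became 5411 and 8323 with coverage offsets, 4303 and 5793 with GC offsets, and 12583 and 12322 after thinning. They were 13351 and 12798 with the group alone, 13908 and 13139 with the replicate block, and 23618 and 29249 with TMM scaling. DESeq2 gave an adjusted p for only 88474 of the 431365 pairs, of which 713 fell and 3755 rose. Where pairs needed at least 20 read pairs and abundance was not filtered, 1390230 were tested. Of those, 21884 fell and 19359 rose.

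Contacts of the start bins at 200 kb to 1 Mb changed sign when divided by total contacts at Foxo1 (0.28), and with the expected value from the same chromosome at Foxo3 (-0.057) and Foxp1 (-0.0062). Leaving out 1 library moved them from -0.17 to -0.02 at Foxo1, from -0.028 to 0.061 at Foxo3 and from 0.020 to 0.11 at Foxp1. Gene body contacts divided by total contacts were 0.015 at Foxo1, 0.20 at Foxo3 and 0.17 at Foxp1, and those of Foxp1 ran from -0.082 to 0.068 as single libraries were left out. The difference in lean between Erg KO libraries and controls kept its sign under each alternative run. The lean of Foxo1 itself did not keep its sign in every library at 200 kb to 2 Mb. There it was -0.131 and -0.138 in Erg KO libraries, -0.022 and -0.090 in CreT controls and 0.068 and 0.030 in Erg fl/fl controls.

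The insulation score of the start bin of Foxo1 lost its call with the group alone (-0.21, limma adjusted p = 0.165) and with the replicate block (-0.21, adjusted p = 0.142), and ran from -0.34 to -0.18 as libraries were left out, with Erg KO replicate 1 left out at the upper end. Divided by total contacts, the start bins were at 0.32, 0.31 and 0.34, and 0, 2 and 0 window bins fell. With windows of 10 bins, Foxo3 (-0.18, adjusted p = 0.037) and Foxp1 (-0.23, adjusted p = 0.024) passed and 7 window bins of Foxp1 fell. With windows of 3 bins 1 did. Genome-wide, 7637 of 23174 bins fell with windows of 10 bins and 6745 of 23411 with windows of 3 bins. Leaving out 1 library moved the start bin of Foxo3 from -0.11 to 0.026 and gave 0 to 2 fallen bins around Foxp1. Among the minima, dividing by total contacts turned those of Foxo3 at 800 and 900 kb (0.045 and 0.057) and of Foxp1 at 100 kb upstream (0.37) and 1000 kb downstream (0.050). Thinning turned the one 100 kb upstream of Foxp1 (0.050), and windows of 10 bins the one 1000 kb downstream (0.0016), which ran from -0.38 to 0.047 as single libraries were left out.

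Local contacts of the start bin of Foxo1 lost their call with the group alone (-0.16, edgeR adjusted p = 0.154) and with the replicate block (-0.16, adjusted p = 0.077), and with total contacts as an offset (0.087). With that offset Foxo3 was at 0.11 and Foxp1 at 0.17, and 4, 4 and 0 window bins fell. At 100 kb to 1 Mb Foxp1 was at -0.073. Window bins that fell numbered 9 at Foxo1, 9 at Foxo3 and 0 at Foxp1 with the group alone, 12 at Foxo1 and 0 at Foxp1 with the replicate block, 0 at Foxp1 without TMM, and 2 at Foxp1 at 100 kb to 1 Mb and after thinning. Of 23649 bins genome-wide, 5612 fell with the group alone and 6107 with the replicate block. There were 6699 without TMM, 7993 at 100 kb to 1 Mb and 7249 after thinning. Leaving out 1 library moved the start bins from -0.23 to -0.13 at Foxo1 and from -0.17 to -0.0082 at Foxo3. For the compartment score 0 of 63 bins changed under every alternative that kept all libraries. With the group alone and with the replicate block no bin passed genome-wide, so these fits could not show a change here. Of 23649 bins, 287 fell and 288 rose with the GC trend removed, 443 and 747 without smoothing, and 245 and 262 after thinning. Some fits that left out a library, which keep a single library in a group, called bins in the windows. In these fits the median difference ran from -0.107 to 0.013 around Foxo1 and from -0.070 to 0.022 around Foxo3. Around Foxp1 it ran from -0.073 to 0.0028. The start bin of Foxo3 ran from -0.0075 to 0.057 in the same fits. With Erg fl/fl control replicate 2 left out, Erg KO replicate 2 is the one male library and sets the sex term.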
